A study of Mus musculus with 24 samples.

Results

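The 58 genes described here encode organic ion transporters and ATP-binding cassette (ABC) transporters, measured in mouse liver. They were chosen by name, as every gene whose symbol in the array files began with Slco, Slc22a, Abca, Abcb, Abcc or Abcg followed by a number, without Abcb11, Abcg5 and Abcg8, and which had a probe in the deposited table of normalized values. They were 58 of the 21652 genes of that table. The array carried 80 genes with such names, and 22 of them were not analysed here because the table held none of their probes. Where a gene had several probes, the brightest on average across the 24 arrays stood for it.

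RNA came from whole livers of male C57Bl/6J mice of 12 weeks, with 1 array for each mouse and 6 mice in each of 4 groups. All mice carried floxed alleles of p110α, the catalytic subunit of phosphoinositide 3-kinase encoded by Pik3ca. Mice labelled LKO also carried albumin-Cre+/-, and mice labelled LWT were floxed littermates without Cre. LWT_Fed and LKO_Fed mice ate freely, LWT_Fasted and LKO_Fasted mice had food withdrawn 24 h earlier, and every mouse was killed 16 h after the light came on. The albumin promoter drives Cre in hepatocytes, and whether all other liver cells of LKO mice keep the intact gene was not examined. In RNA of a whole tissue, fewer cells of a type and less RNA per cell cannot be told apart.

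Transporters decide which molecules enter a hepatocyte from the blood and which leave it into blood or bile. Organic anion transporting polypeptides (Slco genes) and the Slc22a family, which holds transporters of organic anions, organic cations and carnitine, act mainly in uptake. ABC transporters use ATP to move substrates, among them phospholipids, cholesterol, conjugated bilirubin and drugs, and several of them line the bile canaliculus.

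On single arrays 54.7% to 63.0% of spots exceeded background clearly, and 54 of the 58 genes had a probe well above background on all 24 arrays. Arrays of the same group correlated across probes with r of 0.985 to 0.997, and no pair held identical values. The array weights, which limma lowers for arrays that depart from their group, were smallest for LWT_Fed replicate 3 at 0.32, LKO_Fasted replicate 4 at 0.355 and LWT_Fasted replicate 2 at 0.441. The probe of Pik3ca, at chr3:32364747-32364806 (mm9), had a mean log2 signal of 11.91 ± 0.21 (SD, n = 6) on LWT_Fed and 12.54 ± 0.26 on LKO_Fed arrays, and the fitted log2 difference was 0.58 (SE 0.113, adjusted p = 0.00147). The signal was thus higher on arrays labelled LKO, and between fasted groups the difference was -0.02 (adjusted p = 0.93). The study's methods describe a PCR check of the deletion, which is not among the data analysed here, and whether this probe lies in the deleted part was not examined, so LKO and LWT below mean arrays labelled so. None of the 5 hepatocyte markers tested (Alb, Ttr, Apoa1, Serpina1a and Hnf4a) passed the test in any comparison, though their summed signal was 1404264 to 1456246 on LKO_Fasted arrays and 1469531 to 1528339 on those of the other groups. Summed bile duct markers were 507 to 1838 on LKO and 1722 to 3425 on LWT arrays. Kupffer cell markers, none of 8 of which passed in any comparison, summed to 88628 on LKO_Fasted replicate 6 and to at most 51714 elsewhere. The median log2 fold change of these 8 markers on fasting was -0.43 in LWT and -0.03 in LKO. In each list of markers of other cells, few members passed. Between labels, LKO was lower for 1 of 5 bile duct markers (Spp1, -1.50 fed and -2.10 fasted), 1 of 3 adipose markers (Cfd, -2.76 and -3) and 1 of 3 erythroid markers (Alas2, -0.80 and -0.83, where Hba-a1 showed -0.32 and 0.50 and Slc4a1 -0.13 and 0.15). Other bile duct markers were lower as well but did not pass. Krt19 showed -0.57 and -0.48, Epcam -0.41 and -0.42 (adjusted p = 0.0102 and 0.00935) and Krt7 -0.20 and -0.15. The median of the bile duct list was -0.41 fed and -0.42 fasted. In the fed state LKO was lower for 1 of 6 endothelial markers (Lyve1, -0.88). Of the others Tek showed -0.51 (adjusted p = 0.039), Clec4g -0.31, Stab2 -0.20 and Kdr 0.11, and the list median was -0.29. Of 2 pancreas markers Cela2a was higher in LKO (0.82 and 0.63), where Amy2a5 showed -0.13 and -0.51. On fasting 1 of 6 stellate cell markers fell (Lrat, -0.90 in LWT and -0.96 in LKO). Dcn showed 0.25 under both labels, Pdgfrb -0.06 and -0.29, Des -0.09 and -0.11 and Reln 0.10 and -0.15. The median of the stellate list was -0.08 in LWT and -0.22 in LKO. The median summed signal went from 28670 to 33613 in LWT and from 29167 to 34406 in LKO. Of the bile duct markers Krt19 fell (-0.67 in LWT and -0.59 in LKO), and Spp1 fell in LKO (-0.95) and showed -0.35 in LWT. Krt7 showed -0.27 and -0.23, Epcam -0.08 and -0.10 and Sox9 0.55 and 0.58. The list median was -0.27 in LWT and -0.23 in LKO. Cela2a fell by -0.79 and -0.99, where Amy2a5 showed 0.21 and -0.17. The part of these markers in the results was not tested.

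The first question was how the transporters respond to a day of fasting under each genotype label. A gene passed the test, here called risen or fallen, when its adjusted p was no higher than 0.05 and its fold change exceeded 1.5. On LWT arrays 12 of 58 genes (20.7%) passed, against 10% of all 21495 genes tested. Of these 6 had risen, where 4.81% of all genes rose, and 6 had fallen, where 5.22% fell. On LKO arrays 13 of 58 (22.4%) passed, against 12.8% of all genes, with 3 risen and 10 fallen, where the background was 5.90% risen and 6.88% fallen. The median log2 fold change of the 58 genes was -0.02 in LWT and -0.07 in LKO, and over all genes it was -0.01 and -0.02. By adjusted p alone 25 of the 58 passed in LWT and 22 in LKO, against 41.5% of all genes under each label, and fed and fasted arrays were free of overlap for 15 under each label, against 21.6% of all genes in LWT and 22.1% in LKO. For 42 of the 58 genes the change passed under neither label, and the others included folds of up to 11.6.

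**Figure D1:**
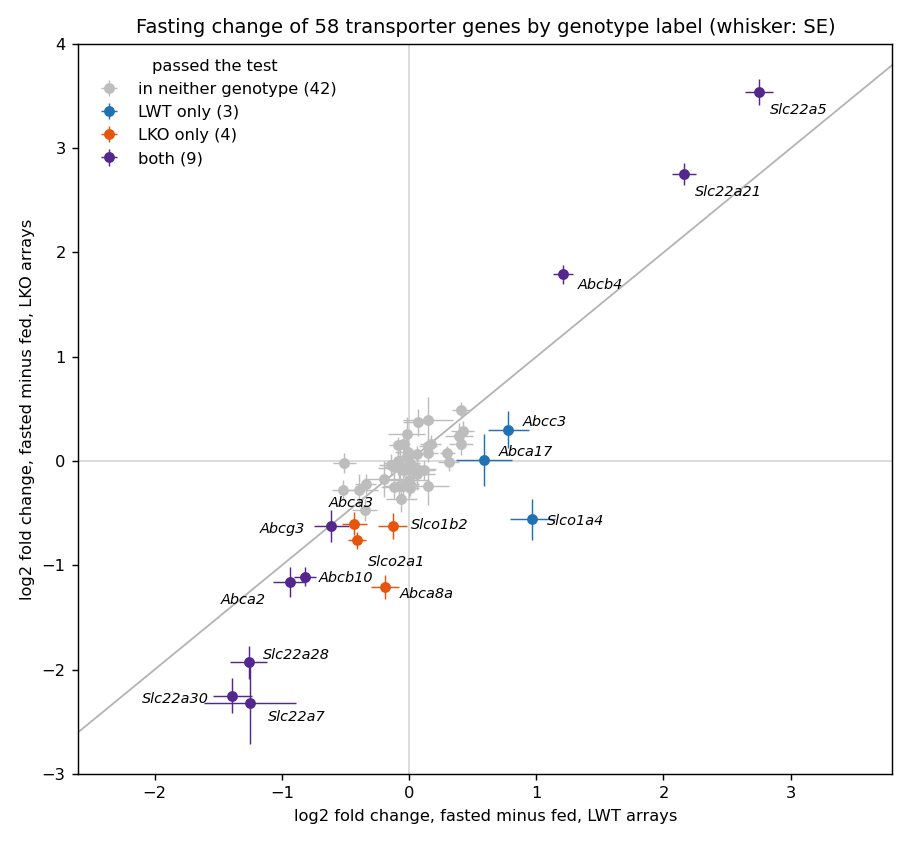
Log2 fold change of each of the 58 genes from fed to fasted on LWT arrays (horizontal axis) and on LKO arrays (vertical axis), with whiskers for the SE and a diagonal of equal change. Colours show the 9 genes that passed the test under both labels, 3 that passed in LWT, 4 that passed in LKO and 42 that passed in neither, and Slco1a4 lies at 0.97 in LWT and -0.56 in LKO.

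The largest increases were in carnitine transporters, which bring in the carrier that long-chain fatty acids need to enter mitochondria. Of 4 genes in this group 2 rose under both labels and 2 did not pass, where 4.81% of all genes rose in LWT and 5.90% in LKO. Slc22a5, the high-affinity sodium-dependent carnitine transporter OCTN2, had a log2 signal of 10.33 to 10.82 (median 10.46) on LWT_Fed arrays and 13.09 to 13.65 (median 13.41) on LWT_Fasted arrays. On LKO_Fed arrays it was 10.04 to 10.74 (median 10.47), and on LKO_Fasted arrays 13.52 to 14.06 (median 14). No fed array came near any fasted array. The rise was 2.75 in log2 in LWT (SE 0.111, adjusted p = 1.26e-13), a fold of 6.71, and 3.54 in LKO (SE 0.123, adjusted p = 2.38e-14), a fold of 11.6. The interaction, the response to fasting in LKO less the response in LWT, was 0.79 (SE 0.166, adjusted p = 0.00553), and between fasted groups LKO arrays were higher by 0.62 in log2 (SE 0.121, adjusted p = 0.000928) with an overlap between the groups. The fasted difference was 0.58 without LWT_Fasted replicate 1 and 0.54 without replicate 5, both under the fold threshold. Within the 3 slides the interaction was 0.17, 0.76 and 0.96. A second probe of Slc22a5 rose by 2.42 and 2.88, but its interaction of 0.47 (adjusted p = 0.157) and its difference between fasted groups of 0.49 (adjusted p = 0.019) did not pass.

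Slc22a21, a carnitine transporter of the mouse known as OCTN3 that lies beside Slc22a5, followed the same course. Its log2 signal was 7.22 to 7.65 on LWT_Fed, 9.27 to 9.74 on LWT_Fasted, 7.02 to 7.53 on LKO_Fed and 9.63 to 10.2 on LKO_Fasted arrays. Fed and fasted arrays did not overlap under either label. The fold was 4.47 in LWT and 6.71 in LKO, with an interaction of 0.59 in log2 (SE 0.14, adjusted p = 0.0136) that lay at the edge of the fold threshold. Leaving out any of 10 arrays in turn brought that interaction to between 0.51 and 0.58, under the threshold, and these were LWT_Fed replicates 3, 5 and 6, LWT_Fasted replicates 1, 2 and 5, LKO_Fed replicates 1 and 2, and LKO_Fasted replicates 5 and 6. This gene had a single probe in the table, and 33 unbroken bases of it recur in the second probe of Slc22a5, with 54 of 60 bases in shared runs of 10 or more. The stretches printed next show 20 bases of that run in capitals, because the probes may not tell the RNAs of this pair apart, which was not tested. They are bases 18 to 47 of the Slc22a5 probe at chr11:53679058-53679117 and bases 16 to 45 of the Slc22a21 probe at chr11:53764508-53764567, both on the minus strand of mm9.
Slc22a5 second probe: aagaaatgaaTGAGTCTCTTGAACAAGCAG
Slc22a21 probe: agaaatgaatTGAGTCTCTTGAACAAGCAG
The probe that represents Slc22a5 shared no run of 16 or more bases with a probe of another of the 58 genes, and it showed the larger rise. Slc22a4, the neighbouring ergothioneine transporter OCTN1, had log2 fold changes of -0.12 (adjusted p = 0.389) in LWT and -0.25 (adjusted p = 0.0846) in LKO. Slc22a16 had values of 0.15 and 0.14 and did not pass either.

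**Figure D2:**
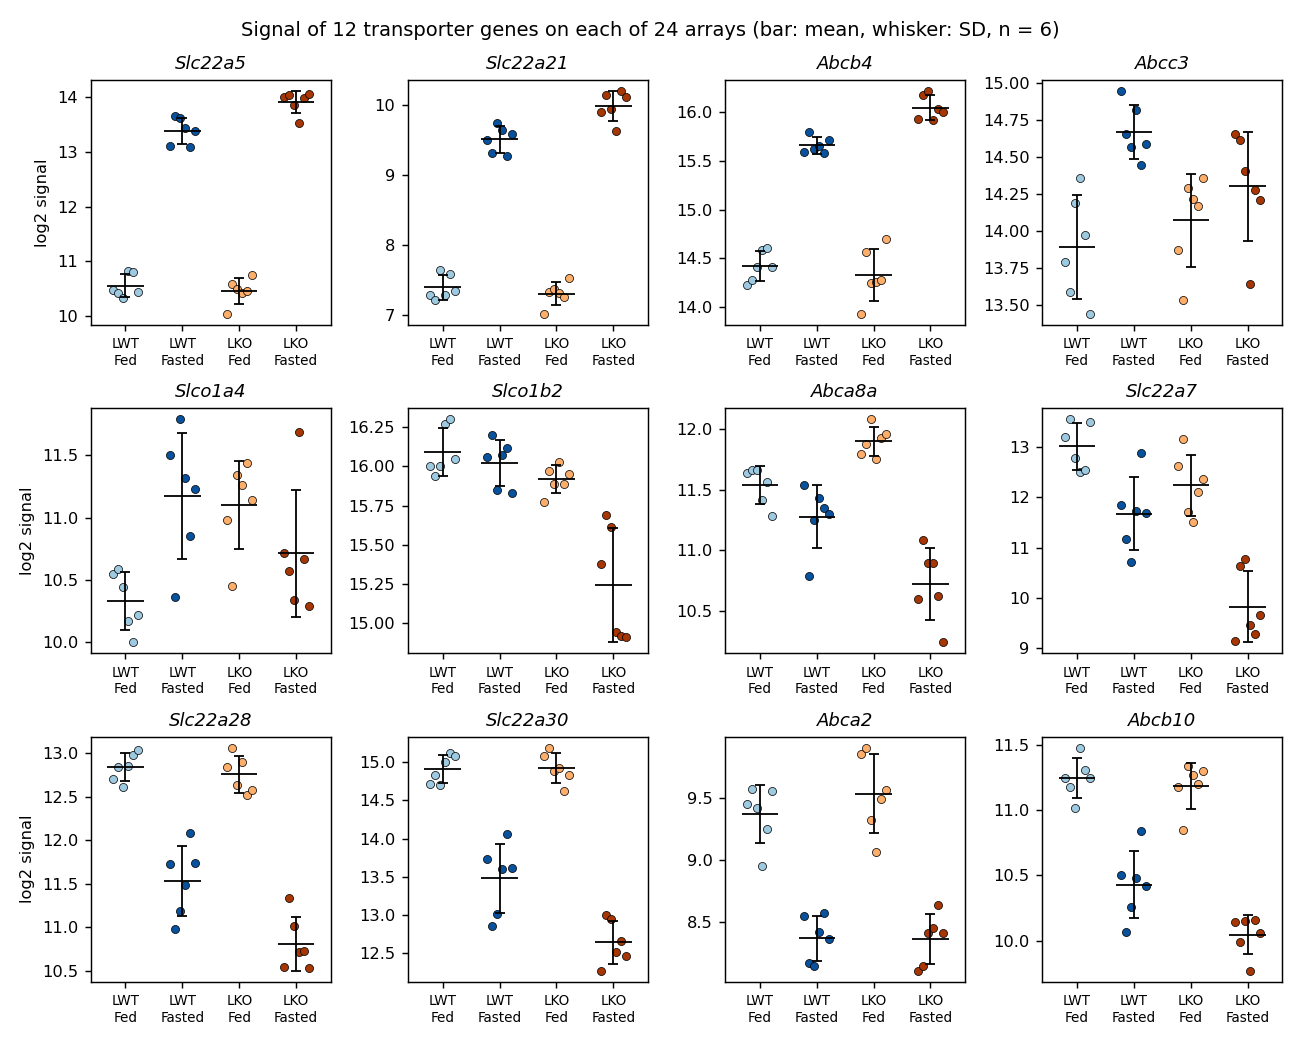
Normalized log2 signal (vertical axis) of 12 transporter genes on each array, by group (horizontal axis), with points for the 6 arrays of a group, a bar for their mean and whiskers for the SD. Fasted arrays stand clear of fed ones for Slc22a5, Slc22a21, Abcb4, Slc22a28, Slc22a30, Abca2 and Abcb10. For Slco1b2 all LKO_Fasted arrays lie below every other array.

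Among the 9 Slco uptake transporters, 1 (11.1%) rose in LWT and 2 (22.2%) fell in LKO on fasting. Of all genes 10% and 12.8% passed. Slco1b2 (OATP1B2), a hepatocyte uptake transporter of conjugated bilirubin, statins and the mushroom toxin phalloidin, had a log2 signal of 15.94 to 16.3 (median 16.03) on LWT_Fed and 15.83 to 16.2 (median 16.07) on LWT_Fasted arrays. It was 15.77 to 16.03 (median 15.92) on LKO_Fed and 14.91 to 15.69 (median 15.16) on LKO_Fasted arrays. All 6 LKO_Fasted arrays lay below every other array, with replicates 4, 5 and 6 at 14.94, 14.92 and 14.91 and replicates 1, 2 and 3 at 15.38, 15.69 and 15.61. The fall on fasting in LKO was -0.62 (SE 0.126, adjusted p = 0.000403), and the difference between fasted groups was -0.70 (SE 0.124, adjusted p = 0.000379). In LWT the fasting change was -0.13 (adjusted p = 0.375), and the interaction of -0.49 (SE 0.17, adjusted p = 0.0839) did not pass. Both differences were below the fold threshold without LKO_Fasted replicate 6, at -0.50 and -0.58, and the first also without replicate 5, at -0.52. The interaction passed without LKO_Fasted replicate 2, at -0.60, or replicate 3, at -0.61. Within the 3 slides the fasted difference was -0.70, -0.69 and -0.95. A second probe fell by -0.93 in LKO and showed -0.55 (adjusted p = 0.0159) in LWT, short of the fold threshold, and -0.53 (adjusted p = 0.0554) between fasted groups.

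Slco1a4 (OATP1A4), an uptake transporter of bile acids, steroid conjugates and cardiac glycosides, was the gene whose response differed most between labels. Its log2 signal was 10 to 10.59 (median 10.33) on LWT_Fed, 10.36 to 11.79 (median 11.27) on LWT_Fasted, 10.45 to 11.44 (median 11.2) on LKO_Fed and 10.29 to 11.69 (median 10.62) on LKO_Fasted arrays. LWT_Fed arrays were the lowest group, and every pair of groups overlapped. It rose on fasting in LWT by 0.97 (SE 0.179, adjusted p = 0.000156), whereas the change in LKO was -0.56 (SE 0.198, adjusted p = 0.0272), short of the fold threshold. The interaction was -1.53 (SE 0.267, adjusted p = 0.0014). Accordingly LKO exceeded LWT in the fed state by 0.82 (SE 0.183, adjusted p = 0.00389) and was lower in the fasted state, by -0.70 (SE 0.195, adjusted p = 0.013). LKO_Fasted replicate 4 stood apart at 11.69, where the other arrays of its group reached 10.72 at most. This array is on slide 1, and within that slide the fasted difference was 0.34, opposite in sign to the pooled value. Within the other slides the difference was -1.14 and -0.58, and the interaction was -0.24 on slide 1 and -1.78 and -1.69 on the others. Without LKO_Fasted replicate 4 the fasting change in LKO was -0.66 (adjusted p = 0.00366) and passed, as it did without LKO_Fed replicate 1 or 2, at -0.67 each, and without LKO_Fasted replicate 1, at -0.62, or replicate 2, at -0.60. The fasted difference did not pass without LKO_Fasted replicate 3, at -0.58 (adjusted p = 0.0502), nor without array weights, at -0.46 (adjusted p = 0.163), with the fasted groups fitted alone, at -0.69 (adjusted p = 0.0845), or with no filter on dim probes, at -0.63 (adjusted p = 0.0599).

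Of the other Slco genes Slco2a1 fell in LKO and the rest did not pass. Slco1a1 (OATP1A1), a male-predominant uptake transporter of steroid sulphates and bile acids, had medians of 12.89 on LWT_Fed, 12.8 on LWT_Fasted, 12.75 on LKO_Fed and 12.4 on LKO_Fasted arrays. Its difference between fasted groups was -0.44 (SE 0.13, adjusted p = 0.0188) and did not reach the fold threshold. Slco2b1 (OATP2B1), a carrier of steroid sulphates and thyroid hormone, showed fasting changes of -0.04 in LWT and -0.09 in LKO. Its second probe showed 0.06 in LWT and 0.53 in LKO (adjusted p = 0.000732), and 0.48 between fasted groups (adjusted p = 0.0042) where the first showed -0.24, all short of the fold threshold. Slco3a1, a carrier of prostaglandins and thyroid hormone named outside the rule for named genes after its values were seen, showed -0.51 in LWT (adjusted p = 8.96e-05) and -0.02 in LKO, and its fasted groups differed by 0.50 (adjusted p = 0.000962) without overlap, short of the fold threshold. Its 3 other probes showed 0.31 to 0.43 between fasted groups, -0.35 to -0.24 on fasting in LWT and -0.52 to 0.22 in LKO, so its probes disagreed on the response in LKO, and none passed. Slco2a1, the prostaglandin transporter, was 12.39 to 12.62 on LWT_Fed, 11.93 to 12.32 on LWT_Fasted, 12.66 to 13.01 on LKO_Fed and 11.85 to 12.36 on LKO_Fasted arrays. All fasted arrays were below all fed ones, and the fall passed in LKO at -0.76 (SE 0.0815, adjusted p = 1.48e-07), while the value in LWT was -0.41 (SE 0.0737, adjusted p = 0.000103). Endothelial cells also make this transporter. Of 6 endothelial markers none passed on fasting, but Tek showed -0.54 (adjusted p = 0.0102) on LWT arrays and Pecam1 0.37 (adjusted p = 0.00867) on LKO arrays, both short of the fold threshold, and the part of these cells was not tested. Of 3 probes of Slco2a1, 2 fell in LKO and the third gave -0.38.

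Organic anion transporters of the Slc22a family held the largest decreases. Of 7 genes 3 fell under both labels, where 5.22% of all genes fell in LWT and 6.88% in LKO. The other 4 had fasting changes between -0.07 and 0.02 in LWT and between -0.24 and -0.02 in LKO. Slc22a7 (OAT2), a sinusoidal carrier of organic anions and of nucleobases and their derivatives, had a log2 signal of 12.51 to 13.56 (median 13) on LWT_Fed and 10.71 to 12.89 (median 11.71) on LWT_Fasted arrays. On LKO arrays it was 11.5 to 13.16 (median 12.23) fed and 9.13 to 10.78 (median 9.55) fasted. Fed and fasted arrays overlapped in LWT and were separate in LKO, and LKO_Fasted overlapped with LWT_Fasted only between 10.71 and 10.78. The fall was -1.25 in LWT (SE 0.36, adjusted p = 0.00752), and -2.32 in LKO (SE 0.398, adjusted p = 6.41e-05), a fold of 5.01. Between fasted groups LKO was lower by -1.89 (SE 0.39, adjusted p = 0.00154), a fold of 3.7 and the largest difference between labels among the 58 genes. Within the 3 slides that difference was -1.39, -1.26 and -2.92. In the fed state the difference was -0.82 (SE 0.368, adjusted p = 0.142), and the interaction of -1.07 (SE 0.536, adjusted p = 0.236) did not pass.

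Slc22a28 and Slc22a30, neighbours on chromosome 19 named as members of the organic anion transporter branch, fell together. Slc22a30 had a log2 signal of 14.7 to 15.12 (median 14.92) on LWT_Fed, 12.86 to 14.06 (median 13.6) on LWT_Fasted, 14.62 to 15.19 (median 14.9) on LKO_Fed and 12.27 to 13 (median 12.59) on LKO_Fasted arrays. Slc22a28 had medians of 12.85, 11.6, 12.73 and 10.72 in the same order. For both genes the fed arrays were separate from the fasted ones under each label, and fed arrays of the labels overlapped. Slc22a30 fell by -1.39 in LWT (SE 0.154, adjusted p = 2.6e-07) and by -2.25 in LKO (SE 0.17, adjusted p = 8.09e-10), with an interaction of -0.86 (SE 0.229, adjusted p = 0.0261). Slc22a28 fell by -1.26 (SE 0.145, adjusted p = 4.19e-07) and -1.93 (SE 0.16, adjusted p = 3.18e-09), with an interaction of -0.66 (SE 0.216, adjusted p = 0.0639) that did not pass. Between fasted groups LKO was lower by -0.87 for Slc22a30 (adjusted p = 0.000815) and -0.77 for Slc22a28 (adjusted p = 0.00138). Within the 3 slides the fasted difference of Slc22a30 was -0.47, -0.57 and -1.46. Its interaction had an adjusted p of 0.0503 without LKO_Fed replicate 1, at -0.77, and of 0.0551 without LKO_Fasted replicate 6, at -0.80. The interaction of Slc22a28 passed without LWT_Fasted replicate 2 or 3, at -0.71 and -0.75, and without LKO_Fasted replicate 2 or 3, at -0.76 and -0.74. That interaction also passed with a term for replicate number, at -0.79 (adjusted p = 0.0489), and with no slide term, at -0.68 (adjusted p = 0.0366). With the authors' table of normalized values it passed at -0.66 (adjusted p = 0.0452). The 2 other probes of Slc22a30 fell by -1.37 and -1.28 in LWT, and the other probe of Slc22a28 by -1.39, with an interaction of -0.73 (adjusted p = 0.0497) that passed. Other probes of this pair share 23 unbroken bases, shown here in capitals as far as the printed stretch reaches, while the probes that represent the genes share no run of 16 or more.
Slc22a28 second probe, chr19:8136749-8136808, minus strand of mm9, bases 6 to 35: gaaaattgtaTTCAGGACATGGTGACAATT
Slc22a30 further probe, chr19:8410155-8410214, minus strand of mm9, bases 1 to 30: aaattttgTTCAGGACATGGTGACAATTTT

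Slc22a3 (OCT3), an organic cation transporter that carries monoamines, did not pass in any comparison. It showed -0.01 in LWT and 0.09 in LKO on fasting, and a difference between labels of -0.43 in the fed state (SE 0.105, adjusted p = 0.0074) and of -0.33 in the fasted state (SE 0.111, adjusted p = 0.0426), both short of the fold threshold.

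Of 3 ABCB proteins of the canalicular membrane 1 rose under both labels and the others did not pass. Of all genes 4.81% rose in LWT and 5.90% in LKO. Abcb4 (MDR2), the flippase that delivers phosphatidylcholine to bile, had a log2 signal of 14.22 to 14.61 (median 14.41) on LWT_Fed, 15.58 to 15.8 (median 15.63) on LWT_Fasted, 13.93 to 14.7 (median 14.27) on LKO_Fed and 15.92 to 16.22 (median 16.01) on LKO_Fasted arrays. Fed and fasted arrays were separate, and all LKO_Fasted arrays exceeded all LWT_Fasted ones. The rise was 1.21 in LWT (SE 0.0819, adjusted p = 1.96e-10), a fold of 2.32, and 1.79 in LKO (SE 0.0905, adjusted p = 2.14e-12), a fold of 3.47. The difference between fasted groups was 0.45 (SE 0.0889, adjusted p = 0.0011), and the interaction was 0.58 (SE 0.122, adjusted p = 0.00586), just under the fold threshold. It passed, at 0.59 to 0.62, without any 1 of 13 arrays, namely LWT_Fed replicates 1, 2, 3 and 6, LWT_Fasted replicates 1, 3 and 4, LKO_Fed replicates 5 and 6, and LKO_Fasted replicates 1, 2, 4 and 6. Its 2 other probes rose by 1.34 and 1.27 in LWT and by 1.68 and 1.66 in LKO, with interactions of 0.34 (adjusted p = 0.168) and 0.40 (adjusted p = 0.0502). The second of these probes passed between fasted groups, at 0.60 (adjusted p = 7.49e-05), and the first, at 0.48, did not. Abcb1a and Abcb1b, the P-glycoproteins that pump drugs out of cells, had fasting changes of -0.08 and 0.06 in LWT and of -0.24 and -0.12 in LKO. Abcb1a was lower in LKO by -0.41 fed (SE 0.126, adjusted p = 0.0307) and -0.57 fasted (SE 0.134, adjusted p = 0.00433), both below the fold threshold. The fasted value passed without LWT_Fasted replicates 2, 3 or 6, at -0.59, -0.66 and -0.69, or without LKO_Fasted replicate 4, at -0.60.

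Of 7 ABCC exporters 1 (14.3%) rose in LWT and none passed in LKO, where 10% and 12.8% of all genes passed. Abcc3 (MRP3), which returns glucuronides and bile acids to the blood, had a log2 signal of 13.44 to 14.36 (median 13.88) on LWT_Fed, 14.45 to 14.95 (median 14.63) on LWT_Fasted, 13.53 to 14.36 (median 14.19) on LKO_Fed and 13.64 to 14.66 (median 14.35) on LKO_Fasted arrays. LWT_Fasted arrays were above all fed arrays, whereas LKO_Fasted arrays overlapped with LKO_Fed ones. The rise in LWT was 0.78 (SE 0.16, adjusted p = 0.000425), and its other probe gave 0.78 as well. In LKO the value was 0.30 (SE 0.177, adjusted p = 0.189), and the interaction of -0.48 (SE 0.238, adjusted p = 0.228) did not pass. Abcc2 (MRP2), the canalicular pump of bilirubin glucuronides, had a fasting change of 0.30 in LWT (SE 0.0588, adjusted p = 0.000268) and of 0.08 in LKO (adjusted p = 0.348). Abcc6, which mediates release of ATP from hepatocytes and is mutated in pseudoxanthoma elasticum, had values of 0.01 and -0.26. Abcg2 (BCRP), a canalicular pump of urate and sulphated conjugates, showed 0.07 in LWT and 0.37 in LKO on fasting, with a difference of -0.40 between labels in the fed state (SE 0.121, adjusted p = 0.0296).

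Lipid transporters of the ABCA family, 11 genes, held 1 rise and 1 fall in LWT and 3 falls in LKO. These are 18.2% and 27.3% of the family, where 10% and 12.8% of all genes passed. A second probe of Abca5 also passed in LWT, at 0.69 (adjusted p = 0.013), where its representing probe gave 0.41. Abca1, which loads cholesterol and phospholipid onto apolipoprotein A-I, had medians of 12.42 on LWT_Fed, 11.86 on LWT_Fasted, 12.39 on LKO_Fed and 11.98 on LKO_Fasted arrays. Its fasting change was -0.52 in LWT (SE 0.0856, adjusted p = 4.06e-05) and -0.28 in LKO (SE 0.0946, adjusted p = 0.0203), both under the fold threshold. Abca2, an endolysosomal lipid transporter, was 8.95 to 9.57 on LWT_Fed, 8.15 to 8.57 on LWT_Fasted, 9.06 to 9.9 on LKO_Fed and 8.11 to 8.64 on LKO_Fasted arrays. It fell to the same range under both labels, by -0.94 in LWT (SE 0.129, adjusted p = 4.47e-06) and -1.16 in LKO (SE 0.142, adjusted p = 8.94e-07), with an interaction of -0.22 (95% interval -0.62 to 0.18, adjusted p = 0.533).

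Abca8a, which lies in a row of related genes from Abca5 to Abca9, fell on fasting in LKO, and its response differed between labels. Its log2 signal was 11.28 to 11.66 (median 11.6) on LWT_Fed, 10.79 to 11.54 (median 11.32) on LWT_Fasted, 11.75 to 12.08 (median 11.91) on LKO_Fed and 10.24 to 11.08 (median 10.75) on LKO_Fasted arrays. LKO arrays lay above all LWT_Fed arrays when fed, and below all fed arrays of either label when fasted. The fasting change was -1.21 in LKO (SE 0.118, adjusted p = 3.35e-08) and -0.19 in LWT (SE 0.107, adjusted p = 0.166), and the interaction was -1.02 (SE 0.159, adjusted p = 0.000531). The difference between fasted groups was -0.64 (SE 0.116, adjusted p = 0.000489), and it did not reach the fold threshold without LWT_Fasted replicate 4, at -0.57, or without LKO_Fasted replicate 5 or 6, at -0.58 and -0.53. Within the 3 slides the interaction was -0.37, -0.86 and -1.54. A second probe gave -1.20 in LKO, -0.94 for the interaction, -0.29 between fasted groups (adjusted p = 0.116) and 0.65 between fed groups (adjusted p = 0.00102), where the first probe gave 0.38 (adjusted p = 0.0211).

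Among the remaining ABC genes, Abcb10, an exporter of the inner mitochondrial membrane needed for haem synthesis in red cell precursors, had a log2 signal of 11.02 to 11.48 on LWT_Fed, 10.07 to 10.84 on LWT_Fasted, 10.85 to 11.34 on LKO_Fed and 9.77 to 10.16 on LKO_Fasted arrays. Fed arrays exceeded fasted ones without overlap. The fall was -0.82 in LWT (SE 0.0845, adjusted p = 1.04e-07) and -1.11 in LKO (SE 0.0934, adjusted p = 3.66e-09), with an interaction of -0.30 (adjusted p = 0.159). Of 3 erythroid markers none passed on fasting, but Alas2 showed -0.46 (adjusted p = 0.0199) on LWT arrays and -0.50 (adjusted p = 0.0238) on LKO arrays, short of the fold threshold, and the part of red cell precursors was not tested. Abcg1, a cholesterol exporter to high-density lipoprotein, had fasting changes of -0.39 and -0.28. A further 3 genes passed outside the rule for named genes and are given because they complete the counts. Abca17 rose in LWT by 0.59 (adjusted p = 0.0387), Abcg3 fell by -0.61 in LWT and -0.62 in LKO, and Abca3, a carrier of surfactant phospholipid in lung, fell by -0.60 in LKO, where its other probe gave 0.08.

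The second question was how the labels differ within each feeding state. In the fed state 1 of 58 genes (1.72%) passed, against 3.84% of all genes. It was Slco1a4, higher in LKO as were 2.66% of all genes, and none was lower, where 1.18% were. Probes that did not represent their gene passed as well, namely 2 of Slc22a15 that were lower, at -0.88 (adjusted p = 0.0347) and -0.78 (adjusted p = 3.65e-05), where its representing probe gave -0.48 (adjusted p = 0.118), 1 of Abca8b that was higher, at 0.75 (adjusted p = 0.00102), and the second of Abca8a that was higher, at 0.65 (adjusted p = 0.00102). Fed arrays of the labels were free of overlap for 3 of the 58, against 8.63% of all genes. In the fasted state 7 of 58 (12.1%) passed, against 4.06% of all genes, and 4 passed without array weights. Slc22a5 was higher in LKO, where 1.77% of all genes were higher, and Slco1b2, Slco1a4, Abca8a, Slc22a7, Slc22a28 and Slc22a30 were lower, where 2.28% were lower. Of these 7 differences the arrays of Slco1b2 alone did not overlap between the groups, and over all genes 8.67% were free of overlap, as were 5 of the 58. By adjusted p alone 11 passed fed, against 16.4%, and 23 fasted, against 20.6%. The median log2 difference of the 58 genes was -0.04 fed and -0.09 fasted, against -0.01 and 0 over all genes. The interaction passed for 5 genes (8.62%), against 3.09% of all genes, and the count was 3 without LKO_Fed replicate 1 and 8 without LKO_Fasted replicate 2. It had Slc22a5 and Slc22a21 higher (1.55% of all genes) and Slco1a4, Abca8a and Slc22a30 lower (1.54%). By adjusted p alone it was 7 genes, against 7.97%. The 3 comparisons share arrays, so these counts are not independent of each other or of the fasting counts.

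**Figure D3:**
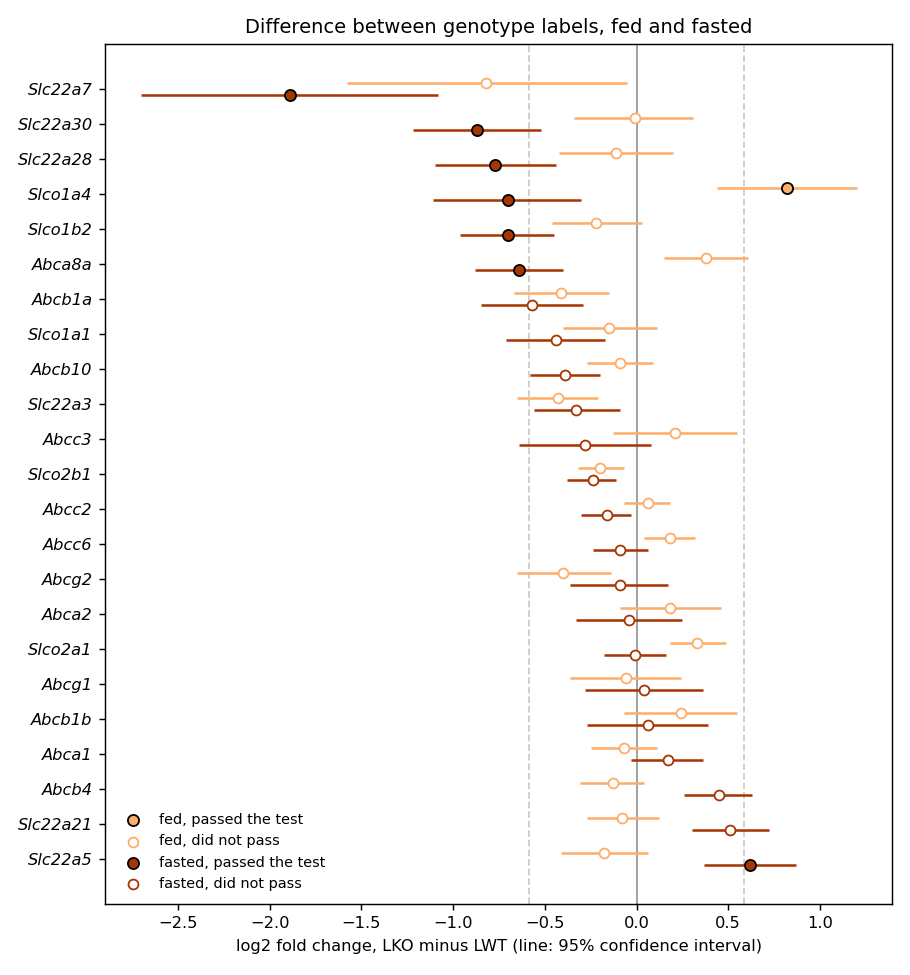
Log2 fold change of LKO against LWT (horizontal axis) for named genes (vertical axis), fed and fasted, with lines for the 95% confidence interval, filled points for genes that passed the test and dashed lines at a fold of 1.5. Slco1a4 changes side between fed and fasted, and Slc22a7 lies farthest to the left at -1.89.

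Many of these genes sit side by side, which the rule for choosing them did not use. Taking probes within 500000 bases of the next in mm9, 30 of the 58 genes fell into 9 clusters. On chromosome 11, Slc22a5 and Slc22a21 rose while Slc22a4 did not pass. On chromosome 5, Abcb4 rose beside Abcb1a and Abcb1b, neither of which passed. On chromosome 19, Slc22a28 and Slc22a30 fell between Slc22a26, Slc22a8 and Slc22a6, whose fasting changes ranged from -0.24 to 0.01. The Slco1 cluster on chromosome 6 held Slco1c1 and Slco1a6, with values of at most 0.39, next to Slco1b2 and Slco1a4. It also held Slco1a1, with -0.06 in LWT and -0.36 in LKO. In the Abca5 to Abca9 cluster on chromosome 11, Abca8a fell in LKO by -1.21 where Abca8b gave -0.02. Each of these 5 clusters thus held some genes with unlike fasting changes, while Slc22a5 and Slc22a21, and Slc22a28 and Slc22a30, changed alike. No test of position was made.

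**Figure D4:**
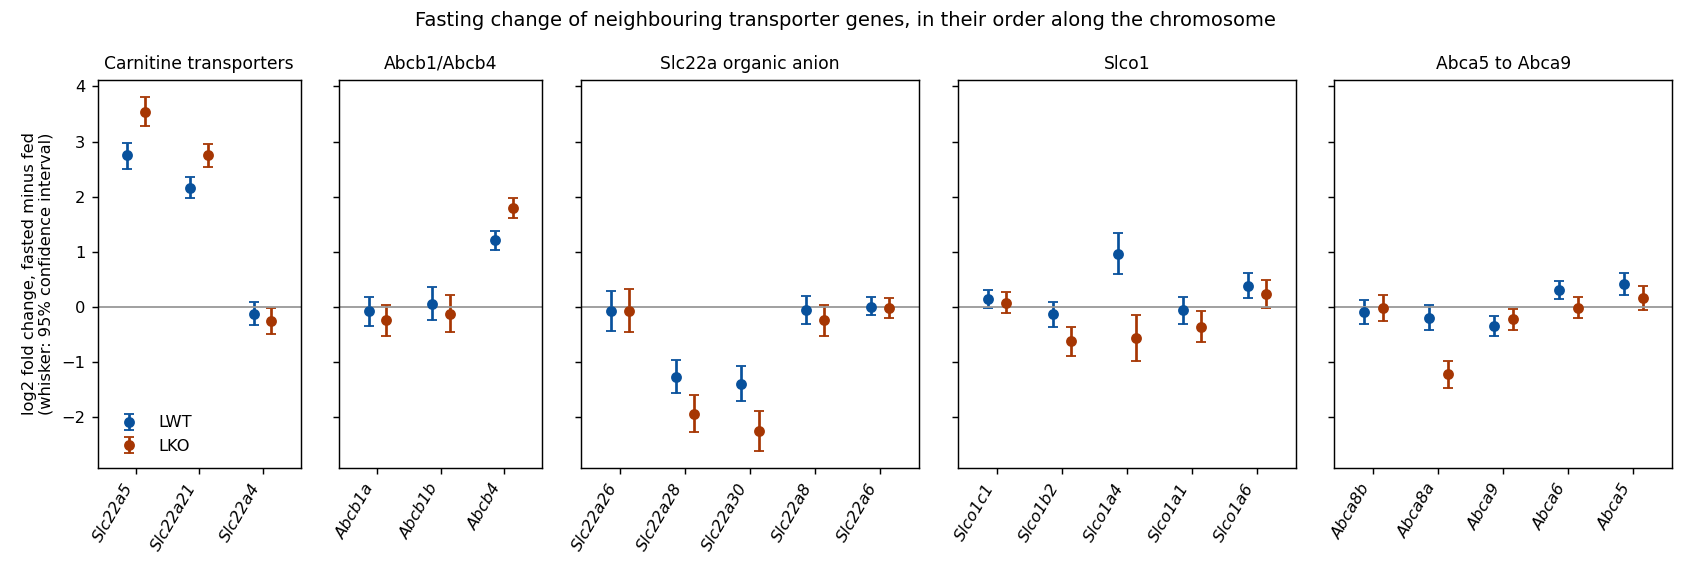
Log2 fold change from fed to fasted (vertical axis, whiskers for the 95% confidence interval) for genes of 5 clusters in their order along the chromosome (horizontal axis, not to scale), on LWT and LKO arrays. In the carnitine panel Slc22a4 stays near 0 while Slc22a5 reaches 3.54, and in the Slco1 panel only the intervals of Slco1a4 lie on opposite sides of 0.

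Promoters were examined for letters bound by receptors of the kind that respond to fatty acids and bile acids. RefSeq promoters of build GRCm38.p6 were matched for 45 of the 58 genes, Slc22a21 and Slc22a7 not among them. The 250 bases upstream of the start were searched on both strands for AGGTCA, the core motif of nuclear receptors, for AGGTCANAGGTCA, a direct repeat of that core, and for TGTTTAC, a forkhead motif. The first letters are part of the second. With the first listed promoter of each gene, AGGTCA was in 6 of 45 promoters (13.3%) and in 13.8% of all 27025 promoters, TGTTTAC in 1 of 45 (2.22%) and in 3.09% of all, and the direct repeat in none of 45 and in 0.037% of all. A further promoter of Slco4a1, not counted, also held AGGTCA. The windows printed next, chosen after the values were seen, belong to the leading carnitine and phospholipid transporters and to the Slco genes that differed between fasted groups, with any of these motifs in capitals. Slco1b2 holds 1 AGGTCA, written on the other strand as TGACCT, and the windows of Slc22a5, Abcb4 and Slco1a4 hold none of the 3 motifs.
Slc22a5, chr11:53891704-53891953, minus strand: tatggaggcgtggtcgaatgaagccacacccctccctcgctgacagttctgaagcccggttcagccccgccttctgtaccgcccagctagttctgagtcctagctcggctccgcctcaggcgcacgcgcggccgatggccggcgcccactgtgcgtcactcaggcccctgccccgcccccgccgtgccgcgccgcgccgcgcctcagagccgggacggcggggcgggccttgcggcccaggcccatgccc
Abcb4, chr5:8893471-8893720, plus strand: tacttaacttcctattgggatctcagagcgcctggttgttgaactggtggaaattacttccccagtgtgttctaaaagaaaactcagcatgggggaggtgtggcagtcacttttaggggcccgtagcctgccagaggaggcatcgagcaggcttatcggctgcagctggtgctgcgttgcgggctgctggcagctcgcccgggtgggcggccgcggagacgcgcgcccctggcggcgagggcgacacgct
Slco1b2, chr6:141629268-141629517, plus strand: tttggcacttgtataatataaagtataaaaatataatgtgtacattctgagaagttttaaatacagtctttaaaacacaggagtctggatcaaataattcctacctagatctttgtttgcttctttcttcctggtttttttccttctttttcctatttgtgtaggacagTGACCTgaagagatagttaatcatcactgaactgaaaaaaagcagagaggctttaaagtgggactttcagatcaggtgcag
Slco1a4, chr6:141856221-141856470, minus strand: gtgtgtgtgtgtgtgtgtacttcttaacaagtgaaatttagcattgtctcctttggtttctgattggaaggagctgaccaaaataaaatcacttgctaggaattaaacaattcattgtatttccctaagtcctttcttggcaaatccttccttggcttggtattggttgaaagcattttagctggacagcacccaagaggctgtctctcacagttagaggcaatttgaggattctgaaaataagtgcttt
A match describes these letters and is no evidence of binding, and a lack of match says only that they are not in this window.

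Transport genes outside the name rule were taken as a list of 22 genes tested. On fasting 9 of them (40.9%) passed in LWT, against 10% of all genes, with 3 risen and 6 fallen. In LKO 4 (18.2%) passed, against 12.8%, with 1 risen and 3 fallen. Abcb11, the bile salt export pump, fell by -0.88 in LWT (SE 0.141, adjusted p = 2.98e-05) and -0.87 in LKO (SE 0.156, adjusted p = 0.000105). Abcg5 and Abcg8, which form the sterol exporter of the canaliculus, rose in LWT by 0.63 and 1.18 and had interactions of -0.97 (adjusted p = 0.00674) and -0.82 (adjusted p = 0.00468). Slc9a3r1, a scaffold of canalicular transporters, fell by -0.62 and -1.32, with an interaction of -0.70 (adjusted p = 0.000568). Abcd3, a peroxisomal carrier of fatty acyl groups, rose in LKO by 0.90 and had an interaction of 0.67 (adjusted p = 0.00402).

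Of 13 regulators of transporter genes, 4 rose in LWT, where 4.81% of all genes rose, and 2 rose and 1 fell in LKO, where 5.90% rose and 6.88% fell. Ppara, the fatty acid receptor, rose by 0.89 in LWT (SE 0.0622, adjusted p = 2.96e-10) and 0.87 in LKO (SE 0.0687, adjusted p = 1.44e-09). Nr1i2, the pregnane X receptor, rose by 0.98 and 0.63, and Nr1i3, the constitutive androstane receptor, by 0.68 in LWT. Foxo1 rose in LWT by 0.71 and was lower in LKO than in LWT when fasted, by -0.63 (SE 0.12, adjusted p = 0.000766), with an interaction of -0.67 (adjusted p = 0.0166). Ahr fell in LKO by -0.73. None of the 13 passed between labels in the fed state. Sex-biased liver genes were taken as a further list, since several transporters of this kind differ between male and female mice. Of 10 male-biased genes 3 were lower in LKO than in LWT when fasted, namely Selenbp2, Cyp4a12a and Hsd3b5, where 2.28% of all genes were lower, and none was higher. Cyp4a12a was lower by -0.72 fasted and also fed, by -1.27 (adjusted p = 0.000119). Of 7 female-biased genes 1 was lower, Cyp2a4, and none was higher.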

How the data were processed

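Liver RNA of 24 mice was hybridised to Agilent 1-colour mouse arrays, 1 array per mouse, and scanned. Per the file headers and the submitters' processing notes, Agilent Feature Extraction 10.10.1.1 gave spot intensity values in the deposited scanner files, with no scaling between arrays. The authors' deposited table of normalized values is on a log2 scale, had been corrected by them for microarray washing bath, and served to choose probes and as an alternative. Probe positions are those of the files (mm9); how the table was filtered is not given in the sources used here.

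The median spot intensity was set to log2 and quantile normalized. Kept were probes well above background on at least 5 of 6 arrays of a group (32197 probes, 21495 genes). limma 3.58.1 in R 4.3.3 fitted 4 groups and slide with array weights, as two-sided tests with Benjamini-Hochberg adjustment over all probes kept. The washing bath of each array is not given in the labels, so slide stood in as the batch. Each of 3 slides held 2 arrays of every group. Mice are the replicates, and their number limits precision. Genes passed when the adjusted p was no higher than 0.05 and the fold exceeded 1.5. Fold changes come from this weighted fit and can differ from differences of group medians. The fit was tested on simulated data. Tables and plots were made with Python 3.11.15, pandas 2.3.3, numpy 2.4.6 and matplotlib 3.10.9.

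Members and gene lists were chosen with earlier results of these data known. Named genes were, in each comparison, the 5 largest increases and decreases among genes that passed, plus main liver transporters whatever their values. Alternatives changed the normalization, background, probe filter, weights, slide term, replicate block, arrays used and minimum fold. Genes without a probe in the deposited table were left out, and 1 gene is not reported here by name.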

Additional observations from a re-analysis of the deposited data

Results flagged for a closer look

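In 96 sets of 6 arrays, each a named gene in a group, an array stood apart from the rest in 5, where chance alone would give about 1 in 20. On LKO_Fasted replicate 4, Slco1a4 was at 11.69 in log2 signal with the next array at 10.72. On the same array Abcb1a was at 7.48 with the next at 6.99, and Abcg2 at 13.23 with the next at 13.96. Abca1 was at 12.1 on LWT_Fed replicate 3, with the next array at 12.4. Abcb10 was at 10.85 on LKO_Fed replicate 2, with the next at 11.18. LKO_Fasted replicate 4 and LWT_Fed replicate 3 were also among the arrays of lowest weight.

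The fasting change differed between labels, by the test of the difference in limma, for 5 genes. The difference was -1.53 in log2 for Slco1a4, -1.02 for Abca8a, -0.86 for Slc22a30, 0.79 for Slc22a5 and 0.59 for Slc22a21. Over 36 alternative settings it did not pass in 18 for Slc22a21 and in 3 for Slc22a30. With the authors' table of normalized values it was 0.58 for Slc22a21, under the fold threshold.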

How the results depend on the processing

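Of 34 comparisons of named genes that passed, 27 passed in all 37 settings tested at the 1.5-fold threshold (changes of that threshold are given as counts) and 7 were lost in some, with no change of sign. Lost in some were the fasted differences of Slco1a4, Slco1b2, Abca8a and Slc22a5, the fall of Slco1b2 in LKO, and the interactions of Slc22a21 and Slc22a30. The fasted difference of Slco1a4 was 0.34 within slide 1, with no test, and ranged from -0.85 to -0.46 over the tested settings, the latter without array weights (adjusted p = 0.163). With no minimum fold, 25 genes passed on fasting in LWT, 22 in LKO, 11 between labels fed and 23 fasted. With a 2-fold minimum 6 passed in LWT, 0 fed, 1 fasted and 2 for the interaction. Scaling to the 75th percentile, or the processed signal, gave 2 fed. Without array weights 4 passed fasted, and with no filter on dim probes 3 for the interaction. With 1 array left out the counts were 10 to 12 in LWT, 10 to 14 in LKO, 1 to 2 fed, with 2 without LKO_Fed replicate 4, 5 to 8 fasted and 3 to 8 for the interaction. With LKO_Fasted replicates 1 and 2 both left out, a choice made after seeing the data as was leaving out the 3 arrays of lowest weight, 9 passed for the interaction. Replicate numbers did not pair the samples: same-numbered arrays had deviations correlating at -0.18 to 0.28 (median -0.03, 36 pairs). With the replicate block, counts were 12 in LWT, 12 in LKO, 1 fed, 7 fasted and 7 for the interaction. Fitting only the groups compared gives no interaction. Signal over background limits 4 of the 58 genes, which were not well above it on every array. The causes of these changes were not tested.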
